A study of Mus musculus with 9 samples.

Results

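The transcription factor network of hematopoietic stem cells was followed through 10 genes, *Meis1*, *Mecom*, *Hlf*, *Gata2*, *Tal1*, *Lmo2*, *Lyl1*, *Fli1*, *Erg* and *Prdm16*. They were taken by symbol as factors known to be needed for HSC identity and self-renewal. They are 10 of 47643 genes in the count table, and all 10 were among the 18205 genes that passed the filter on low counts. RNA was sequenced from long-term HSCs (LT-HSCs) of 3 genotypes, with 3 libraries each. TKO cells were Pik3ca lox-lox, Pik3cb lox-lox and Pik3cd-/- with Mx1-Cre. δKO cells, labelled P110d, carried the same floxed alleles and Pik3cd-/- without Cre. WT cells carried Mx1-Cre alone. All donors were C57BL/6, and whole marrow was transplanted into lethally irradiated B6.SJL recipients aged 6 to 8 weeks. All recipients, WT included, received pIpC (250 μg, 2 injections 48 hours apart), which induces Cre from the interferon-responsive Mx1 promoter. Marrow was collected 4 weeks later, so *Pik3cd* was lost in the germline in TKO and δKO, whereas p110α and p110β were deleted in TKO during adult hematopoiesis. Marrow of 7 recipients per group was combined before donor-derived Lin-cKit+Sca1+Flk2-CD48-CD150+ cells were sorted, and nothing states that the libraries of a genotype came from separate animals. The p-values below therefore measure only the spread between these libraries, of which an unknown share may be technical.

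HSC identity rests on factors that bind the same enhancers together and sustain each other's transcription. GATA2, TAL1, LYL1, LMO2, FLI1 and ERG, with RUNX1, form a set that co-occupies regulatory elements of blood stem and progenitor cells. TAL1 and LYL1 are related basic helix-loop-helix proteins that pair with E proteins at E-box sequences, LMO2 is the LIM-domain bridge that joins them to GATA factors through LDB1, and FLI1 and ERG are ETS factors. MEIS1 is a homeodomain partner of HOX and PBX proteins, HLF is a PAR bZIP factor, and MECOM and PRDM16 are related zinc finger proteins that restrain differentiation of HSCs.

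The promoters of *Tal1*, *Lyl1* and *Hlf* are shown because these genes carry the paralog contrast and the most even member of the network described below, and because ETS and GATA proteins are known to act at the *Tal1* and *Lyl1* genes. Each is the 250 bases before a transcription start in RefSeq for GRCm38.p6, read 5′ to 3′ on the strand of the gene. Capitals mark matches, on either strand, to the core of GATA factors (searched as AGATAA), to the core of ETS factors (searched as CGGAAG) and to the E-box (searched as CANNTG). A match on the opposite strand reads TTATCT for the first of these and CTTCCG for the second. No motif contains another. The *Tal1* window is chr4:115056176-115056425 (plus strand), the *Lyl1* window is chr8:84701207-84701456 (plus strand) and the *Hlf* window is chr11:90390918-90391167 (minus strand). None overlaps an annotated exon.
*Tal1*: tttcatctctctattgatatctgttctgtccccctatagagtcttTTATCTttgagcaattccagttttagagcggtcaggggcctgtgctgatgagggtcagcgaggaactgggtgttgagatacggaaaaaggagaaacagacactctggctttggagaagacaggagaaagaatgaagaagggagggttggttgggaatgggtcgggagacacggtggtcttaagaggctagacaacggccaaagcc
*Lyl1*: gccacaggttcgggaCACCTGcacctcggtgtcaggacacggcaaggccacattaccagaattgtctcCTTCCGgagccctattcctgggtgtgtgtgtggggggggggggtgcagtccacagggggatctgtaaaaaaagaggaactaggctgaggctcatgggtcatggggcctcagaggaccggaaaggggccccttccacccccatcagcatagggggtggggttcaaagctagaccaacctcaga
*Hlf*: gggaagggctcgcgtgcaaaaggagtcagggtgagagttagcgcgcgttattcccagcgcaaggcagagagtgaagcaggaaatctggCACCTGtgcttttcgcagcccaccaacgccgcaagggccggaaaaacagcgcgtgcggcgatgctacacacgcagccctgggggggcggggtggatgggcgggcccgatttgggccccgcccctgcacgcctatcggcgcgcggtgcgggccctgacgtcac
The *Tal1* window printed here held 1 GATA core, while the second RefSeq window of *Tal1*, chr4:115057561-115057810, held none of the motifs. The *Lyl1* window held 1 ETS core and 1 E-box, and the *Hlf* window 1 E-box. Windows were found for 8 of the 10 members (13 windows), and none for *Lmo2* and *Fli1*. The GATA core lay in 2 of the 13 windows, the ETS core in 3 and the E-box in 5. The core of MEIS factors, searched as TGACAG, lay in 2 windows, and that of RUNX factors, searched as TGTGGT, in 1. Of all 32851 mouse windows of this length, 9.99% held the GATA core, 13.6% the ETS core, 66.2% the E-box, 15.9% the MEIS core and 14.0% the RUNX core.

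Libraries held between 31300343 and 60386097 counts on genes, and each member had between 453 and 29039 counts in a library. The counting error of reads was therefore small beside the variation between libraries. The cDNA was amplified before sequencing, so counts do not give the number of RNA molecules sampled. The number of genes with a count ranged from 18180 to 22703, and was lowest in δKO replicate 1 and in the δKO library whose column number is absent from the labels (called the unnumbered δKO library). In CPM (a count scaled to library size with edgeR's TMM factors), *Xist* ranged from 32.1 to 5340 in WT, from 59.5 to 6393 in δKO and from 36.5 to 4162 in TKO libraries, so the libraries of a genotype were not equal parts of 1 pool. Of the targeted genes, *Pik3cb* was lower in every TKO library (25.5 to 33.9 CPM) than in every WT library (44.6 to 63.6 CPM) but overlapped with δKO (33.2 to 101 CPM), *Pik3cd* was also lower in TKO (71.2 to 73.5 CPM) than in WT (98.2 to 139 CPM), and *Pik3ca* overlapped (52.8 to 68.0 against 45.8 to 65.0 CPM). In δKO libraries *Pik3cd* ranged from 38.5 to 91.2 CPM. The paper reports that excision of an exon of *Pik3ca* and of *Pik3cb* was checked by PCR on marrow DNA. Counts over whole genes, as here, do not show whether an exon was lost or a functional transcript remained. The labelled cell type was checked against 12 HSC markers, all of which had counts. *Kit*, the receptor for stem cell factor, ranged from 429 to 949 CPM over the 9 libraries, whereas *Ly6a*, which encodes Sca1, was at 2.15 CPM in δKO replicate 1 and at 10.2 to 37.3 CPM in the others.

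Per kilobase of exon, the order of the members in WT LT-HSCs ran from *Lmo2* to *Prdm16*. *Lmo2* reached 97.4 ± 15.1 CPM per kb (SD, n = 3), *Erg* 81.4 ± 17.5, *Fli1* 71.0 ± 5.26, *Lyl1* 66.4 ± 21.4 and *Hlf* 59.7 ± 3.05. Neighbours among these 5 differed by less than the larger of their SDs. Below them came *Gata2* at 46.1 ± 12.1, *Meis1* at 24.0 ± 5.73 and *Tal1* at 23.7 ± 6.96, of which the last 2 were not separated beyond their spread. *Mecom* at 8.91 ± 1.1 and *Prdm16* at 2.90 ± 0.74 CPM per kb were the lowest, and each gap was larger than the SDs beside it. Exon length was the union of all annotated exons, so a member with many long isoforms is placed too low on this scale. In TKO, the mean of *Hlf* (79.6 ± 13.5) was above that of *Fli1* (68.8 ± 13.8), by less than either SD. *Lyl1*, at 40.5 ± 7.78 CPM per kb in TKO, lay below *Gata2* (58.8 ± 7.73) and beside *Meis1* (38.8 ± 5.82).

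**Figure D1:**
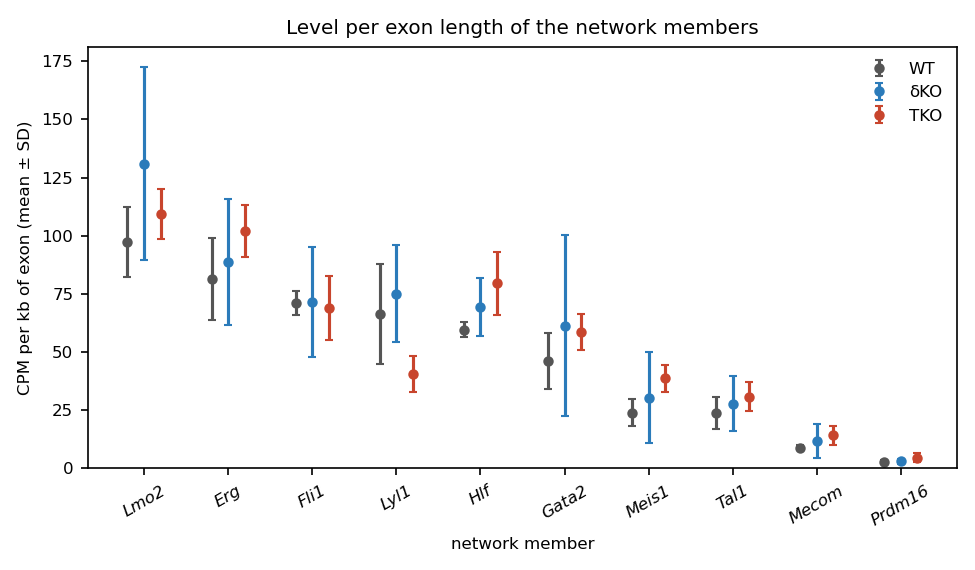
Level of each member in CPM per kilobase of exon (vertical axis), ordered by its WT mean, with points for the mean of 3 libraries and bars for the SD in WT (grey), δKO (blue) and TKO (red). The members span from 97.4 CPM per kb for *Lmo2* to 2.90 for *Prdm16* in WT, and the δKO bars are widest for *Lmo2* (SD 41.6), *Gata2* (38.9) and *Erg* (26.9).

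No member passed the test in any comparison, although most members had a higher mean in TKO than in WT. In TKO against WT, 8 of 10 members were higher (51.2% of all genes were) and 2, *Lyl1* and *Fli1*, lower, with a median log2 fold change of 0.37 beside 0.02 over all genes tested. With edgeR's quasi-likelihood test, 0 of 10 were called, that is, changed over 2-fold with an adjusted p under 0.05, where 0.00549% of all genes were called. DESeq2 was run without the filter on low counts. It called 0 of 10 on all 9 libraries, where it called 0.447% of 27947 genes. On the 6 libraries compared it called 0 of 10, and 2.11% of 27249 genes. Limma on the deposited normalized values called 0 of 10 and 0.00549% of all genes. At an unadjusted p under 0.05 the count was 1 of 10 (*Lyl1*), against 4.19% of all genes. Levels of 3 of 10 members (*Meis1*, *Mecom* and *Hlf*) were higher in every TKO library than in every WT library, which held for 6.88% of all genes, and none was lower in every TKO library, which held for 7.47%. In bulk samples, fewer cells of a type and less RNA per cell cannot be told apart.

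*Meis1*, a homeobox gene on chr11:18879817-19018985 of mm10 (minus strand), was at 183, 286 and 288 CPM in WT replicates 1 to 3 and at 450.0, 338 and 438 CPM in TKO replicates 1 to 3. No WT library reached the lowest TKO library, and the δKO libraries (552, 251 and 157 CPM, the last unnumbered) spanned both. TKO exceeded WT by a log2 fold change of 0.70 (SE 0.392, 95% interval -0.16 to 1.55, edgeR adjusted p = 1.00). All 3 TKO libraries were higher, and the exact permutation test, two-sided, gave p = 0.1, which is the lowest p possible with 3 against 3.

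*Mecom*, on chr3:29951296-30548008 (minus strand) and encoding the EVI1 zinc finger protein, was at 94.8, 118 and 119 CPM in WT and at 186, 124 and 222 CPM in TKO. The groups did not overlap, but TKO replicate 2 stood close to the highest WT library. In δKO the values were 249, 85.4 and 101 CPM. The difference between TKO and WT was 0.68 on the log2 scale (SE 0.386, interval -0.16 to 1.53, edgeR p = 0.104, adjusted p = 1.00, exact permutation p = 0.1).

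*Hlf*, on chr11:90336536-90390895 (minus strand), the member with the smallest spread in WT (a coefficient of variation of 5.11%), was at 389, 385 and 422 CPM in WT and at 545, 436 and 615 CPM in TKO. Here too the groups did not overlap. δKO libraries were at 539, 374 and 477 CPM. On the log2 scale TKO exceeded WT by 0.42 (SE 0.220, interval -0.06 to 0.90, edgeR p = 0.0837, adjusted p = 1.00, exact permutation p = 0.1).

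*Prdm16*, a relative of *Mecom* on chr4:154316125-154636873 (minus strand), 4.61 Mb from *Pik3cd*, was the lowest member, at 33.6, 19.8 and 27.7 CPM in WT, 18.1, 33.4 and 34.6 CPM in δKO and 62.6, 29.5 and 36.5 CPM in TKO. TKO replicate 1 was the highest library and TKO replicate 3 stood a little above all WT and δKO libraries. TKO replicate 2 fell within both ranges, so the groups overlapped. On the log2 scale TKO exceeded WT by 0.67 (SE 0.411, edgeR adjusted p = 1.00, exact permutation p = 0.2), and by 0.29 without TKO replicate 1. When both counts are set side by side, the log2 ratio of *Mecom* to *Prdm16* was 1.5, 2.58 and 2.10 in WT and 1.57, 2.07 and 2.61 in TKO, and these ranges overlapped.

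**Figure D2:**
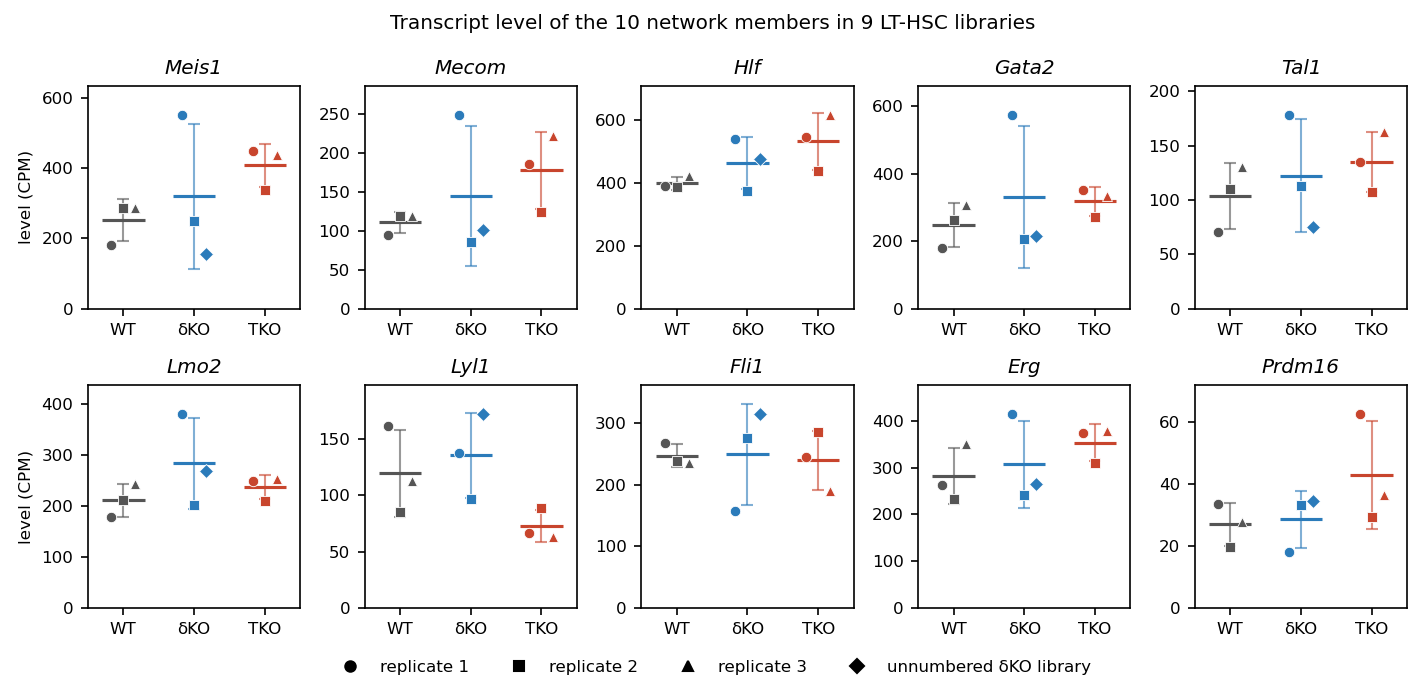
Level of each member in CPM (vertical axis from 0, its own scale in each panel) in the 3 genotypes, with a symbol per library (circle, square and triangle for replicates 1, 2 and 3, diamond for the unnumbered δKO library), a line for the mean and a bar for the SD. *Meis1*, *Mecom* and *Hlf* in TKO lie above all WT symbols, *Lyl1* in TKO lies below all δKO symbols, and δKO replicate 1 is the highest library for *Meis1*, *Mecom*, *Gata2*, *Tal1*, *Lmo2* and *Erg*.

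The genes of GATA2, TAL1 and LMO2, which act in a complex, overlapped between genotypes. *Gata2*, on chr6:88193891-88207032 (plus strand), was at 178, 261 and 307 CPM in WT, 573, 206 and 214 CPM in δKO and 349.9, 270.4 and 332 CPM in TKO. Here δKO replicate 1 was the highest of the 9 libraries. *Tal1*, on chr4:115056426-115071755 (plus strand) with its promoter printed above, was at 70.7, 110.2 and 131 CPM in WT, 178, 113 and 75.6 CPM in δKO and 135, 108 and 162 CPM in TKO. *Lmo2*, on chr2:103957986-103981878 (plus strand), was at 178, 211 and 244 CPM in WT, 380.2, 202 and 269 CPM in δKO and 249, 209.9 and 252 CPM in TKO. Differences of TKO from WT on the log2 scale were 0.35 (SE 0.378) for *Gata2*, 0.38 (SE 0.344) for *Tal1* and 0.17 (SE 0.259) for *Lmo2*, with an edgeR adjusted p of 1.00 for each and exact permutation p of 0.2, 0.3 and 0.3. The lowest values were 0.16, 0.16 and 0.057, without WT replicate 1, and the highest 0.53, 0.58 and 0.28, without WT replicate 3.

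*Lyl1*, on chr8:84701457-84704715 (plus strand) and the paralog of *Tal1*, had the most negative log2 fold change of the 10 members in both comparisons of TKO. It was at 161, 84.9 and 113 CPM in WT, 138, 96.4 and 172 CPM in δKO and 66.5, 89.0 and 63.3 CPM in TKO. TKO replicate 2 fell within the WT range, and every TKO library lay below every δKO library. Relative to WT, the TKO level had a log2 fold change of -0.71 (SE 0.311, interval -1.39 to -0.03, edgeR p = 0.0412, adjusted p = 1.00, exact permutation p = 0.2), and of -0.44 without WT replicate 1. Relative to δKO it was -0.89 (SE 0.312, interval -1.57 to -0.21, edgeR p = 0.0148, adjusted p = 0.465, exact permutation p = 0.1, lower in 3 of 3 libraries), and -0.55 when genes detected entered the fit as a covariate (edgeR adjusted p = 0.949). Exons of *Lyl1* overlap those of *Nfix* on the opposite strand, and the strandedness of the counting is not given in the sources used here, so reads of the 2 genes cannot be told apart there. *Nfix* was at 94.6 to 131 CPM in WT and at 114 to 182 CPM in TKO, with a log2 fold change of 0.40 (edgeR adjusted p = 1.00). Transcripts of the opposite strand also overlap exons of *Mecom*, *Meis1* and *Prdm16*, with 3992 counts over all libraries for *Mecomos* beside 55132 for *Mecom*. The log2 ratio of *Tal1* to *Lyl1* was -1.19, 0.38 and 0.21 in WT, 0.37, 0.23 and -1.18 in δKO and 1.02, 0.28 and 1.36 in TKO. Its ranges overlapped in each comparison (exact permutation p = 0.2 in TKO against WT and 0.2 in TKO against δKO).

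The ETS factors overlapped between genotypes. *Fli1*, on chr9:32422204-32542861 (minus strand), was at 269, 238 and 236 CPM in WT, 158, 276 and 315 CPM in δKO and 245, 285 and 189.7 CPM in TKO, and TKO differed from WT by -0.05 on the log2 scale (SE 0.276, interval -0.65 to 0.56, edgeR adjusted p = 1.00, exact permutation p = 0.9). *Erg*, on chr16:95359169-95586593 (minus strand), was at 262, 234 and 350.0 CPM in WT, 414, 242 and 266 CPM in δKO and 375, 309 and 378 CPM in TKO, with a log2 fold change of 0.33 (SE 0.260, edgeR adjusted p = 1.00, exact permutation p = 0.2), which was 0.21 without WT replicate 2 and 0.51 without WT replicate 3. The log2 ratio of *Erg* to *Fli1* overlapped between all genotypes and was highest, at 1.39, in δKO replicate 1.

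Against δKO, the nearer control of TKO in genotype, fewer members were higher. In TKO 6 of 10 members were higher (47.2% of all genes were) and 4 lower, with a median log2 fold change of 0.17 beside -0.06 over all genes tested. The edgeR test called 0 of 10 members, where it called 0% of all genes. DESeq2 called 0 of 10 on all 9 libraries (1.96% of all genes) and 0 of 10 on the 6 compared (1.01%). At an unadjusted p under 0.05 the count was 1 of 10, *Lyl1*, against 10.2% of all genes. Besides *Lyl1* (1 of 10 below in every library, where 4.74% of all genes were), no member was separated, and 0 of 10 lay above in every library, where 6.98% of all genes did. The log2 fold changes were 0.58 for *Prdm16*, 0.36 for *Meis1*, 0.29 for *Mecom*, 0.20 for *Hlf*, 0.20 for *Erg* and 0.14 for *Tal1*, and -0.26 for *Lmo2*, -0.06 for *Gata2* and -0.06 for *Fli1*, the last 2 being positive with upper-quartile scaling. Single libraries moved these values. *Prdm16* was at 0.20 without TKO replicate 1, *Meis1* at 0.027 without the unnumbered δKO library, and *Mecom*, *Hlf* and *Erg* at 0.016, 0.061 and 0.053 without δKO replicate 2. Without δKO replicate 1, *Erg* was at 0.47, *Gata2* turned to 0.59 and *Lmo2* to 0.0052. Without the unnumbered δKO library, *Tal1* turned to -0.11 and *Fli1* to 0.14.

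δKO against WT compared germline loss of *Pik3cd* with its presence, but δKO also carried floxed *Pik3ca* and *Pik3cb* and no Cre, which cannot be told apart here. All 10 members had a positive log2 fold change (7 of 10 with upper-quartile scaling, where *Fli1*, *Erg* and *Prdm16* were negative), from 0.01 for *Fli1* to 0.43 for *Lmo2*, with a median of 0.23 beside 0.05 over all genes tested, of which 52.8% were positive. *Lmo2* was at 0.16 without δKO replicate 1 and at 0.63 without δKO replicate 2, at 0.24 with upper-quartile scaling and at 0.19 with genes detected as a covariate. The edgeR test called 0 of 10, where it called 0.00549% of all genes. DESeq2 called 0 of 10 on all 9 libraries (0.673% of all genes) and on the 6 compared (0.726%). In the edgeR fit 0 of 10 had an unadjusted p under 0.05, against 7.01% of all genes. No member lay above all WT libraries or below them, where 4.13% and 7.39% of all genes did. The 3 comparisons share libraries, so their values are not independent. Upper-quartile scaling moved the median over all genes by more than 0.1, to 0.08 in TKO against δKO and -0.10 in δKO against WT. The median of the members was then 0.35 and 0.045 instead of 0.17 and 0.23, and 8 of the 10 members had positive values in the first of these. With genes detected as a covariate, the members' median in δKO against WT was 0.13.

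**Figure D3:**
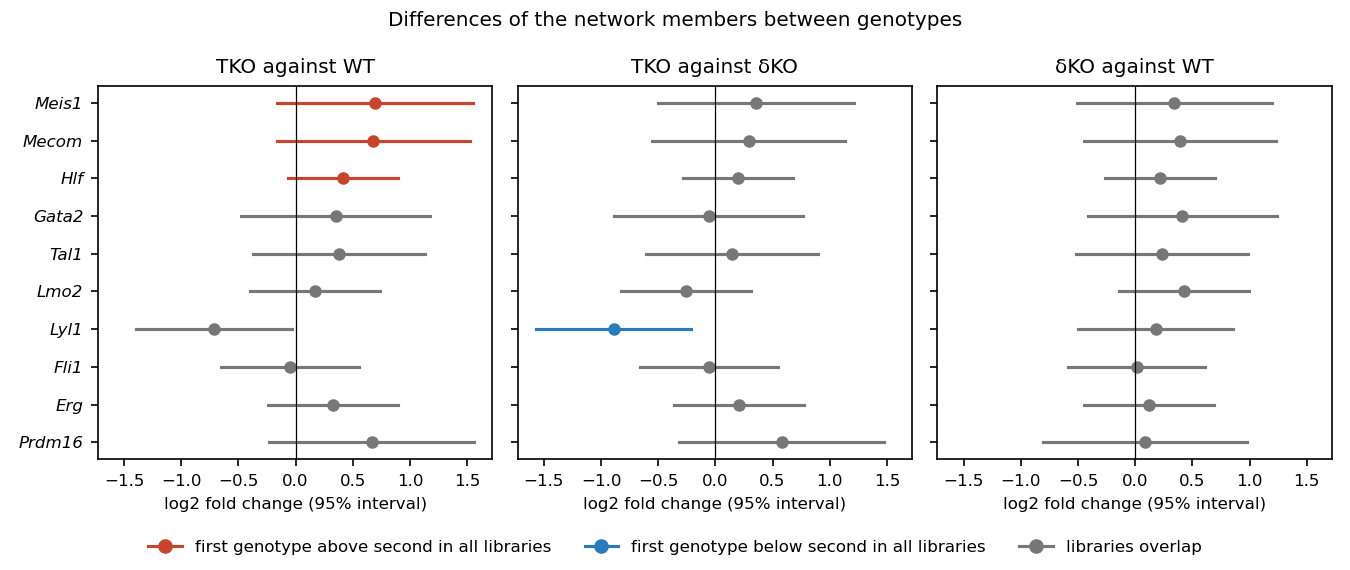
Log2 fold change of each member (horizontal axis) with its 95% interval from edgeR, in each of the 3 comparisons (1 panel each), colored where the groups do not overlap. The only intervals that leave out 0 are those of *Lyl1* in TKO against WT and against δKO.

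One library decided much of the δKO values. δKO replicate 1 held the highest level of 6 members (*Meis1*, *Mecom*, *Gata2*, *Tal1*, *Lmo2* and *Erg*) and the lowest of *Fli1* and *Prdm16*. The coefficient of variation of *Meis1* was 64.5% in δKO, against 23.9% in WT and 14.99% in TKO, and that of *Gata2* was 63.4% against 26.1% and 13.2%. Without this library, 5 instead of 10 members had positive values in δKO against WT and the median was -0.02. In TKO against δKO the median was then 0.40, 8 members were higher, and 4 had an unadjusted edgeR p under 0.05, against 12.2% of all genes in that fit. These were *Meis1* (log2 fold change 1.00, edgeR adjusted p = 0.283), *Mecom* (0.92, adjusted p = 0.297), *Gata2* (0.59, adjusted p = 0.402) and *Lyl1* (-0.88, adjusted p = 0.350). The TKO against δKO median was instead 0.034 without δKO replicate 2 and 0.056 without the unnumbered δKO library. In TKO against WT the median was 0.22 without WT replicate 1 and 0.52 without WT replicate 3. Restricting the fit to the 6 TKO and WT libraries gave 4 of 10 members with an unadjusted edgeR p under 0.05, against 9.09% of all genes in that fit. They were *Meis1*, *Mecom*, *Lyl1* and *Hlf*, with adjusted p from 0.362 to 0.550.

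**Figure D4:**
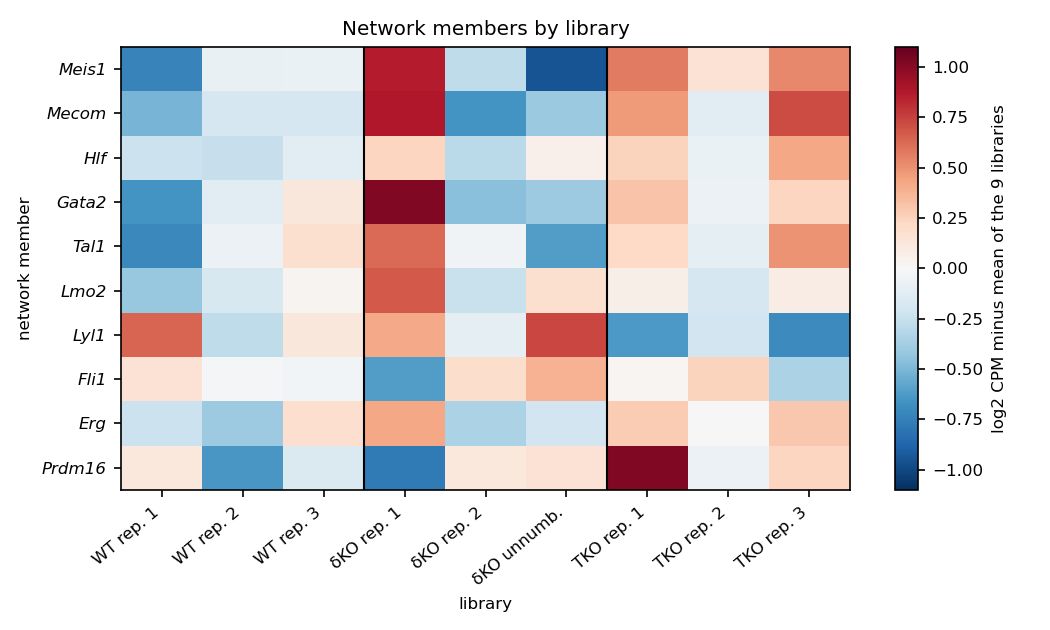
Log2 CPM of each member (rows) in each library (columns, in genotype order), as the difference from its mean over the 9 libraries, from blue (lower) to red (higher). δKO replicate 1 is red in 8 of 10 members, TKO replicates 1 and 3 are red in 9 and 8, and *Lyl1* is blue in all TKO libraries.

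The libraries in which most members were high were low in neutrophil granule genes. The median member, as centered log2 CPM, was 0.53 in δKO replicate 1, 0.27 in TKO replicate 1 and 0.27 in TKO replicate 3, and between -0.33 and -0.00087 in the other 6 libraries. These 3 libraries were also the lowest in the summed level of 10 neutrophil genes, at 276, 168 and 928 CPM, where the other libraries held from 3247 to 12283 CPM. *Mpo*, myeloperoxidase, was at 8958, 3233 and 1693 CPM in WT, 99.2, 3032 and 7226 CPM in δKO and 59.9, 1888 and 428 CPM in TKO. All 10 neutrophil genes had counts and all 10 had lower means in TKO than in WT (median log2 fold change -2.97, 0 called by edgeR or DESeq2, 6 with unadjusted edgeR p under 0.05, against 4.19% of all genes). The summed level of 12 cell cycle genes was 2921 to 3673 CPM in WT, 3027 to 4327 in δKO and 2098 to 2418 in TKO, and 12 of 12 had lower means in TKO than in WT (median -0.58) and than in δKO (median -0.72). Of the cell cycle genes edgeR called 0, with 5 and 6 at an unadjusted edgeR p under 0.05 (4.19% and 10.2% of all genes). DESeq2 on all 9 libraries called *Plk1* in TKO against WT, where it called 0.447% of all genes. In TKO against δKO it called *Plk1*, *Cenpe* and *Ccnb1*, where it called 1.96%. All were lower in TKO. The summed level of 12 HSC markers was 861 to 1227 CPM in WT, 984 to 2070 in δKO and 1409 to 1554 in TKO. All 12 were higher in TKO than in WT (median log2 fold change 0.78, against 0.37 for the network members). In TKO 8 were higher than in δKO (0.24), and 11 were higher in δKO than in WT (0.52). Of these markers edgeR called 0. DESeq2 called *Fgd5*, higher in TKO than in WT, on all 9 libraries (0.447% of all genes called), and *Fgd5* and *Ctnnal1* on the 6 compared (2.11%). The part of these genes in the values of the network was not tested. ERG, FLI1, TAL1, GATA2 and LMO2 are also made by endothelial cells. The 8 endothelial markers summed to 20.2 to 25.6 CPM in WT, 19.5 to 28.0 in δKO and 23.4 to 32.5 in TKO. Levels differed within this list. *Cdh5*, *Cldn5* and *Plvap* were at most at 0.445, 0.266 and 0.531 CPM, whereas *Kdr*, *Stab2*, *Emcn* and *Sele* reached 8.30, 8.87, 19.0 and 21.8 CPM. Of the 5 markers tested, 4 were higher in TKO than in WT (median log2 fold change 0.89) and 3 than in δKO (0.99). EdgeR called 0, and DESeq2 called *Stab2* higher in TKO than in WT on the 6 libraries compared (2.11% of all genes called). *Emcn* was higher in every TKO library (15.8 ± 3.19 CPM) than in every WT (8.51 ± 1.75) and δKO library (7.94 ± 3.03), with edgeR adjusted p of 1.00 and 0.550. Of all genes, 6.88% and 6.98% were. *Sele* had the lower mean in TKO, by -1.83 against WT and -1.90 against δKO, and overlapped with both. The part of these markers in the result was not tested.

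**Figure D5:**
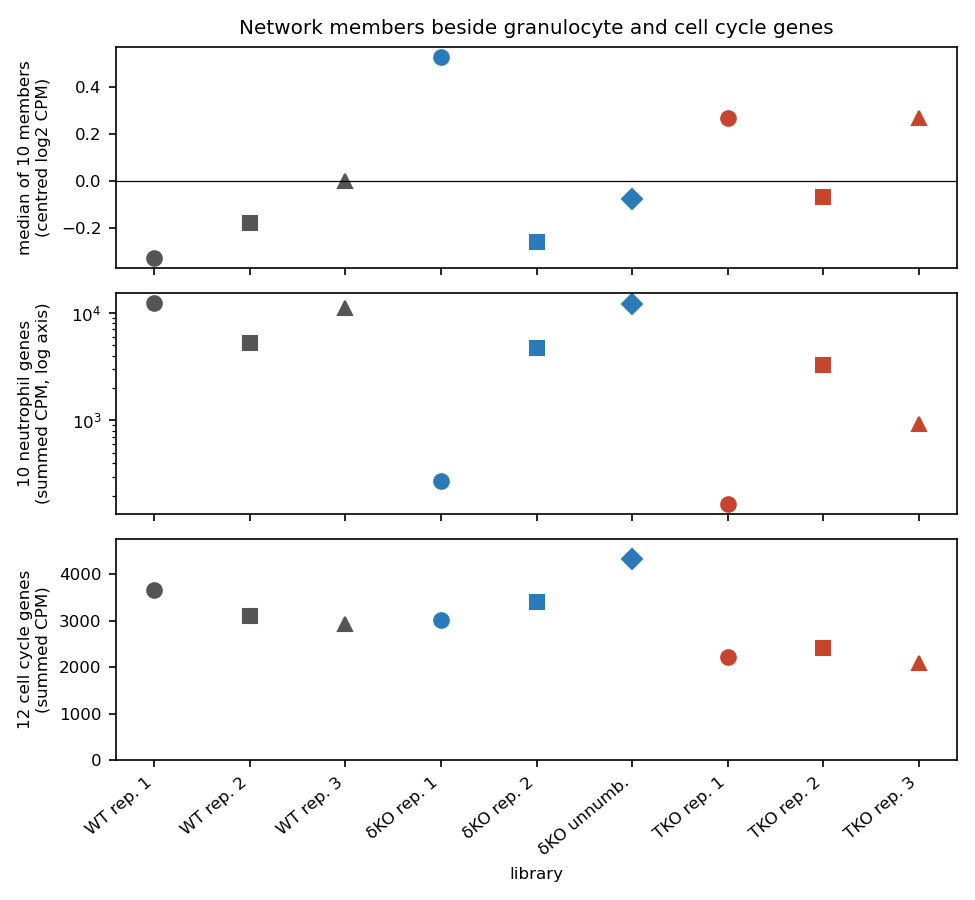
For each library (horizontal axis), the median of the 10 members as centered log2 CPM (top), the summed CPM of 10 neutrophil genes on a log axis (middle) and the summed CPM of 12 cell cycle genes from 0 (bottom). The 3 libraries with the highest member medians have the 3 lowest neutrophil sums, and all TKO cell cycle sums lie below those of WT and δKO.

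Of the 22 proteins that join the members in complexes, edgeR, DESeq2 and limma each called 0. Of these partners, 16 were higher and 6 lower in TKO against WT (median log2 fold change 0.26). An unadjusted edgeR p under 0.05 was seen for 0, against 4.19% of all genes. The partners and paralogs named here have the smallest p of their list. Of all genes, 6.88% were higher and 7.47% lower in every TKO library than in every WT library. *Ssbp2*, a stabilizer of LDB1, was higher in every TKO library (81.6 ± 9.38 against 52.7 ± 8.84 CPM, SD, n = 3, log2 fold change 0.63, edgeR adjusted p = 1.00), as was the E protein gene *Tcf4* (0.44, adjusted p = 1.00). In δKO against WT, *Ldb1* itself was higher in every δKO library (log2 fold change 0.55, edgeR adjusted p = 0.699), where 4.13% of all genes were. Of 13 tested paralogs of the members, out of 16, 5 were higher and 8 lower in TKO against WT. There edgeR called 0 and DESeq2 on the 6 libraries compared called *Ets1* (2.11% of all genes called). *Ets1* was lower in every TKO library (26.8 ± 4.77 against 63.1 ± 19.5 CPM, log2 fold change -1.24, edgeR adjusted p = 1.00), and *Tef*, a PAR bZIP gene like *Hlf*, was higher in every one (21.1 ± 4.23 against 10.5 ± 3.13 CPM, 1.00, adjusted p = 1.00). Against δKO, *Gabpa* was lower (-0.60, edgeR adjusted p = 0.467) and *Tef* higher (1.43, adjusted p = 0.477) in every TKO library, where 4.74% and 6.98% of all genes were.

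Most genes that the network is known to drive also had a higher mean in TKO than in WT. Of 17 targets, 16 were higher in TKO than in WT (median log2 fold change 0.43), 13 than in δKO (0.11), and 15 were higher in δKO than in WT (0.26), where 51.2%, 47.2% and 52.8% of all genes were. Summed, the targets held 5495 CPM in δKO replicate 1. The other δKO libraries held 2712 and 2875 CPM, within the WT range of 2465 to 2989 CPM. Of all genes, 6.88% were higher and 7.47% lower in every TKO library than in every WT library. In every δKO library 4.13% were higher than in every WT library. Of the targets edgeR called 0 in each comparison, and DESeq2 called *Tie1* in TKO against WT, both on all 9 libraries (0.447% of all genes called) and on the 6 compared (2.11%). *Tie1*, a receptor tyrosine kinase of HSCs and endothelium, was higher in every TKO library (73.1 ± 12.4 against 33.8 ± 7.29 CPM, log2 fold change 1.11, edgeR adjusted p = 1.00) and in every δKO library (69.3 ± 14.9 CPM, 1.04, edgeR adjusted p = 0.699) than in WT. *Tek*, the angiopoietin receptor, was higher in every δKO library (1.07, edgeR adjusted p = 0.699), and *Adgrg1* in every TKO library (0.59, adjusted p = 1.00). Of 26 other HSC regulators, 17 were higher in TKO than in WT (median 0.28) and 13 than in δKO (median -0.02). Among these, edgeR called 0. DESeq2 called *Mycn* in TKO against WT on the 6 libraries compared (2.11% of all genes called) and not on all 9. Among them *Mycn* was higher in every TKO library (72.1 ± 20.9 against 22.2 ± 10.8 CPM, 1.70, edgeR adjusted p = 1.00), and *Hoxb5* was higher in every δKO library (2.00, edgeR adjusted p = 0.699). *Myb* was lower in every TKO than in every δKO library (-0.68, edgeR adjusted p = 0.465), where 4.74% of all genes were. Lineage factors, which direct cells into single blood lineages, gave 6 higher and 9 lower of 15 in TKO against WT (median -0.55) and 8 higher and 7 lower in TKO against δKO (median 0.06). Of these edgeR called 0 in both. In TKO against WT, DESeq2 called *Cebpa* and *Irf4* on the 6 libraries compared (2.11% of all genes called) and neither on all 9. The granulocyte factors *Cebpa* (4.47 ± 3.66 against 29.0 ± 18.6 CPM, -2.70, edgeR adjusted p = 1.00) and *Cebpe* (-2.45, adjusted p = 1.00) were lower in every TKO library than in every WT library, whereas *Cebpa* overlapped between TKO and δKO (31.7 ± 32.9 CPM). *Irf4* was higher in every TKO library at low levels (3.72 ± 2.94 against 0.20 ± 0.15 CPM, edgeR adjusted p = 1.00).

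As a description of likeness between profiles, each member was set beside 10775 genes whose mean reached 5 CPM, by the root mean square difference of centered log2 CPM over the 9 libraries, where all genes share the depth and scaling of each library. *Gata2* was nearest to *Arid1b* (0.124), *Erg* to *Srebf2* (0.107) and then to *Etv6*, another ETS factor (0.112), *Hlf* to *Pdk3* (0.111), *Lmo2* to *Arhgap21* (0.0753) and *Meis1* to *Plekha5* (0.161). *Mecom* was nearest to *Hdgfl3* (0.149), *Tal1* to *Isoc1* (0.156), *Lyl1* to *Ppm1h* (0.156), *Fli1* to *Srp72* (0.0849) and *Prdm16* to *Cyb5r1* (0.127). Within the network, *Hlf* and *Erg* were nearest to each other (0.166), as were *Mecom* and *Gata2* (0.223, rank 8 among all genes for *Mecom*). The nearest member of *Lyl1* lay at 0.513 (rank 2143), and *Fli1* and *Prdm16* were nearest to each other at 0.462, at ranks 2912 and 608.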

How the data were processed

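RNA was sequenced from donor-derived LT-HSCs of 3 genotypes, 3 libraries each. Per the labels and processing notes, the authors trimmed reads with Trim Galore 0.3.7, aligned them to mm10 and counted them per gene with STAR 2.5.1b, and deposited raw counts for 47643 genes. The annotation release and strandedness are not given in the sources used here. The authors also deposited a normalized signal, used in limma as log2(value + 1). Columns were mapped to genotypes by name, and 1 δKO raw column whose number no label has was never paired. Its counts were a constant multiple (within 0.1%, for all 10614 genes with 100 counts or more) of the normalized column of δKO replicate 3.

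Genes were kept by filterByExpr (count minimum 10, minimum total count 15), and edgeR's quasi-likelihood model with TMM factors was fitted to all 9 libraries in R 4.3.3 (edgeR 4.0.16, limma 3.58.1, DESeq2 1.42.0), with Benjamini-Hochberg adjustment over 18205 genes. Calls needed over 2-fold change and an adjusted p under 0.05. Shares of all genes given for DESeq2 are over the genes it fitted, without the filter on low counts. The alternatives were other scaling factors, other filters, a replicate block, only the groups compared, DESeq2, limma, robust estimation, genes detected as covariate, adjusted p alone and each library left out. Single members were also compared with exact two-sided permutation tests. The pipeline was tested on simulated data. Exon lengths are from the mm10 annotation, in which 47224 gene identifiers were found without their version. The lists were partners, paralogs, targets, other HSC regulators, lineage factors, cell cycle, HSC and negative sorting markers and markers of endothelial, megakaryocytic, erythroid, neutrophil, mast or basophil and lymphoid cells. Genes named are the members, the targeted genes, at most 3 per list and comparison by unadjusted p, and the genes with the nearest profiles. Outside this rule, *Xist*, *Kit*, *Nfix*, *Mecomos*, *Cdh5*, *Cldn5*, *Cd3e* and *Cd3g* were named as checks of the libraries, of overlapping genes and of cell types, after their values were seen. The members and lists were chosen with earlier results of these data known. Between same-numbered libraries, deviations correlated by -0.0359 to 0.0829. With 3 libraries a genotype, and without the unnumbered δKO library, this cannot decide whether numbers pair libraries.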

Additional observations from a re-analysis of the deposited data

How the results depend on the processing

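Of 600 recomputed member values (20 alternatives for each of 30 differences), 556 kept their sign, 44 had the other sign and 0 were called, and 16 of the 30 differences kept their sign throughout. Called genes in TKO against WT, 1 as reported, numbered 9 with the compared groups alone, 125 with DESeq2 on all libraries, 575 with DESeq2 on the compared groups, and 1 to 4 with a library left out (4 without δKO replicate 1). In TKO against δKO they rose from 0 to 548 and 267 with DESeq2, and in δKO against WT from 1 to 188 and 194, with 0 for the compared groups alone. Of 6 TKO and WT libraries, 3 correlated best with their own number, which cannot decide whether numbers pair libraries. With the replicate number as a block on the 8 numbered libraries, 1, 0 and 1 genes were called, the members' median was 0.35 in TKO against WT, 0.016 in TKO against δKO and 0.40 in δKO against WT, and in TKO against δKO *Meis1* was -0.0041, *Tal1* -0.27, *Fli1* 0.26 and *Lyl1* -0.58, and in δKO against WT *Lyl1* -0.093, *Fli1* -0.33 and *Prdm16* -0.020 (log2 fold changes here and below). Values of TKO against δKO that changed sign were *Gata2* with upper-quartile factors (0.14), 10 counts in every library (0.055), limma (0.090) and genes detected as covariate (0.22), and *Fli1* with upper-quartile factors (0.049) and 10 counts (0.0042). In δKO against WT these were *Lyl1* with genes detected (-0.34), *Fli1* with upper-quartile factors (-0.12), 10 counts (-0.063), limma (-0.021) and genes detected (-0.028), *Erg* with upper-quartile factors (-0.061) and genes detected (-0.026), and *Prdm16* with upper-quartile factors (-0.039). With a library left out, *Fli1* ranged from -0.19 to 0.10 in TKO against WT. In TKO against δKO the ranges were -0.31 to 0.59 for *Gata2*, -0.11 to 0.52 for *Tal1*, -0.46 to 0.0052 for *Lmo2* and -0.30 to 0.14 for *Fli1*. In δKO against WT they were -0.31 to 0.67 for *Meis1*, -0.24 to 0.66 for *Mecom*, -0.24 to 0.67 for *Gata2*, -0.14 to 0.48 for *Tal1*, -0.034 to 0.45 for *Lyl1*, -0.19 to 0.26 for *Fli1*, 0.16 to 0.63 for *Lmo2*, -0.15 to 0.31 for *Erg* and -0.095 to 0.33 for *Prdm16*. The cause of these changes was not tested. With 3 libraries a genotype, precision was set by variation between libraries and not by the number of reads. This variation may include noise from the amplification of cDNA, which was not tested.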

Other observations

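Among marker genes of mast cells and basophils, megakaryocytes, erythroid cells and lymphocytes, edgeR called 0 in each comparison. DESeq2 on all 9 libraries called *Mcpt8*, lower in TKO than in WT (0.447% of all genes called). It also called *Alas2*, higher in TKO than in δKO (1.96%). On the 6 libraries compared it called *Mcpt8* again but not *Alas2*. Mast cell and basophil genes summed to 69.4 to 151 CPM in WT, 32.1 to 225 CPM in δKO and 2.81 to 40.2 CPM in TKO. *Mcpt8*, a basophil protease, was lower in every TKO library than in every WT library (log2 fold change -5.08, edgeR adjusted p = 1.00), where 7.47% of all genes were. Megakaryocyte genes summed to 71.8 to 280.1 CPM over all libraries. Of 6 tested, 3 were higher and 3 lower in TKO against δKO (median log2 fold change 0.15). *Itgb3* was lower in every TKO library than in every δKO library (-1.31, edgeR adjusted p = 0.465), where 4.74% of all genes were. *Gp9* had the higher mean in TKO (1.59 against δKO and 2.10 against WT), with overlap in both. Erythroid genes summed to 6.40 to 76.3 CPM and lymphoid genes to 4.98 to 17.3 CPM, with *Cd3e* and *Cd3g* at 0 in every library. The 8 genes excluded by the sort summed to 109 to 232 CPM in WT, 22.1 to 239 CPM in δKO and 36.0 to 126 CPM in TKO.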
